A study of Mus musculus with 12 samples.

Results

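Globin genes encode the protein chains of haemoglobin, and 6 of them were followed here: the embryonic β-type genes Hbb-y and Hbb-bh1, the embryonic α-type gene Hba-x, and the adult genes Hba-a1, Hba-a2 and Hbb-bs. They were chosen by name and not by a threshold on measured values, although earlier results of these data were known, and they are 6 of the 41128 gene rows in the count and RPKM tables. All 6 passed the filter on low counts. Each haemoglobin molecule pairs α-type with β-type chains, and mouse embryos switch between chains as blood develops. Primitive red cells, which arise in the yolk sac, make Hbb-bh1, Hbb-y and Hba-x beside the adult α-globins, and they shift from Hbb-bh1 to Hbb-y as they mature. Definitive red cells of the fetal liver and bone marrow make the adult α- and β-globins. Transcription of both clusters depends on the erythroid factors GATA1 and KLF1 (EKLF), and SOX6, a relative of SOX7, is known to silence Hbb-y in definitive red cells.

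The RNA came from mouse haemogenic endothelium, the endothelium that gives rise to blood, grown from embryonic stem cells. The line is a derivative of Ainv18 called iSox7, in which doxycycline (Dox) switches on Sox7, and every group, untreated cells included, carries the transgene. FLK1+ cells were isolated from embryoid bodies of day 3.5, kept for 48 h in liquid blast medium with VEGF and IL6, and then grown without Dox or with 1 µg/ml Dox for another 6, 12 or 24 h, which gave 6 groups of 2 libraries. A single line was used, no Dox-treated cells without the transgene were analysed here, and whether the 2 libraries of a group were separate cultures is not stated in the labels. The p-values therefore reflect the spread between 2 libraries a group, and that spread could be technical alone. The study asked how SOX7 acts on RUNX1 target genes while blood emerges from endothelium.

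The stretches upstream of the transcription start are shown because globin genes that lie side by side moved in opposite directions, as described below. They are the 150 bases before the RefSeq start (GRCm38.p6), 5′ to 3′ on the gene's strand. RefSeq's promoter table held 5 of the 6 genes. The deposited gene rows of all 5 begin further upstream than these starts, by 3 bases for Hba-a2, 33 for Hbb-y, 161 for Hba-a1, 168 for Hbb-bs and 200 for Hba-x. Capitals mark matches to 10 motifs searched on both strands. These were CACCC, which KLF factors such as KLF1 bind, the CCAAT box, the GATA-type letters AGATAA with their variant form TGATAA, the SOX-type letters ACAAAG with the shorter form ACAAT, the RUNX-type letters TGTGGT with the variant form TGCGGT, and the TATA-like letters ATATAA with the variant form ATAAAA.

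Hbb-y, chr7:103853208-103853357, minus strand: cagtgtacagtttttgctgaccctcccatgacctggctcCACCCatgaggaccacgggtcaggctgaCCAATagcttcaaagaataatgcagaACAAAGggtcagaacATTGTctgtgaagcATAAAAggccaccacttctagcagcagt
Hba-x, chr11:32276450-32276599, plus strand: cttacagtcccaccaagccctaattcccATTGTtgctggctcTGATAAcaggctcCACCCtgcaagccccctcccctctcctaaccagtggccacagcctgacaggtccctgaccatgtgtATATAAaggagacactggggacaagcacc
Hba-a1, chr11:32283522-32283671, plus strand: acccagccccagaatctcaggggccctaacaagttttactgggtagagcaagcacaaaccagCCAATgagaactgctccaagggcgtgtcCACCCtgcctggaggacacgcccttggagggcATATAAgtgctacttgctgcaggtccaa
Hbb-bs, chr7:103827929-103828078, minus strand: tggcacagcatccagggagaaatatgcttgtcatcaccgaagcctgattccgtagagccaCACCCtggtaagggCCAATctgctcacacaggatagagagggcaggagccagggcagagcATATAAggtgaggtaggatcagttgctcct

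All 4 windows hold CACCC and a TATA-like match. The Hbb-y window alone among them holds ACAAAG, from 57 to 52 bases upstream of the start, and 42 to 38 bases upstream it holds ACAAT on the opposite strand, printed as ATTGT. The Hba-x window holds ACAAT on the opposite strand, 122 to 118 bases upstream, and TGATAA at 108 to 103. The windows of Hba-a1 and Hbb-bs hold neither SOX-type match. The window of Hba-a2 carries the same letters as that of Hba-a1 over the 147 bases both share, shifted by 3. Of 32851 windows of 150 bases in the table, 37.4% held CACCC, 24.5% CCAAT, 9.88% ACAAAG, 17.4% ACAAT, 2.04% both SOX-type motifs, 4.45% TGATAA, 5.35% ATATAA and 10.1% ATAAAA. The 5 globin windows held no AGATAA (5.65% of all windows), no TGTGGT (8.4%) and no TGCGGT (3.16%). A match is a description of letters and shows neither binding nor its absence.

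The near-identical copies limit what the adult genes can show. The coding sequences of Hba-a1 and Hba-a2 differ at 1 of 426 bases. Of the 75-base stretches of their gene models, the length of a read here, Hba-a1 shared 67.9% with Hba-a2, and Hba-a2 shared 84.6% with Hba-a1. Hbb-bs shared 51.5% of its stretches with Hbb-bt, the other adult β-globin. How the authors' counting treated reads that match both copies is not given in the sources used here, so the levels of Hba-a1, Hba-a2 and Hbb-bs are uncertain. Hbb-y, Hbb-bh1 and Hba-x shared no 75-base stretch with another globin gene, and the coding sequence of Hbb-y is 76.42% identical to that of Hbb-bh1 and 74.38% to that of Hbb-bs.

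Libraries held 13485804 to 35250074 counts, and the biological coefficient of variation was 4.71%. Sox7 reads, which cannot separate the transgene from the gene itself, were 52.1 to 81.7 CPM, the reads scaled to library size, in the 6 untreated libraries and 313.7 to 379.2 in the 6 with Dox, and the log2 fold changes were 2.01 at 6 h, 2.58 at 12 h and 2.68 at 24 h. Of 10 erythroid markers, 9 were in the tables and none of these was at 0 in all libraries. One library touches many values below: in untreated cells at 12 h, replicate 1 was above replicate 2 by 1.21-fold (Hbb-y) to 1.80-fold (Hbb-bs) for all 6 globins. The same library was also higher for Gata1 (27.3 against 17.3 CPM) and Klf1 (19.2 against 11.9). In such mixed RNA, fewer red cells and less globin RNA per red cell cannot be told apart.

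With Dox the globin genes moved in opposite directions. Hbb-y rose at all 3 hours, most at 12 h, while Hba-a1 fell at all 3, Hba-a2 and Hbb-bs at 12 and 24 h, and Hba-x and Hbb-bh1 at 24 h. Libraries with and without Dox did not overlap for 5 of 6 genes at 6 h, 4 at 12 h and 6 at 24 h, where this held for 39.4%, 48.9% and 49.6% of all tested genes. At 6 h, 1 of 6 genes rose (Hbb-y) and 1 fell (Hba-a1), where 0.821% of all 15347 tested genes rose and 0.717% fell. At 12 h, 1 rose and 3 fell, where 3.26% of all genes rose and 3.51% fell; without the untreated library described above, 2 rose (Hbb-y and Hbb-bh1) and 1 fell (Hba-a1). At 24 h, 1 rose and 5 fell, where 4.5% rose and 6.52% fell. The median log2 fold change of the 6 genes was -0.50, -0.54 and -1.98 at 6, 12 and 24 h, and over all tested genes it was 0.01, -0.01 and -0.01. Called means an adjusted p under 0.05 by the quasi-likelihood test of edgeR, with p adjusted after Benjamini and Hochberg over all tested genes, and each fold change below carries its standard error (SE). The calls of Hba-a1 at 6 h, Hba-a2 and Hbb-bs at 12 h, and Hbb-y and Hbb-bh1 at 24 h were not reached in DESeq2 or in limma-trend fits to log2 RPKM, and that of Hbb-y at 6 h was not reached in limma-trend.

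**Figure D1:**
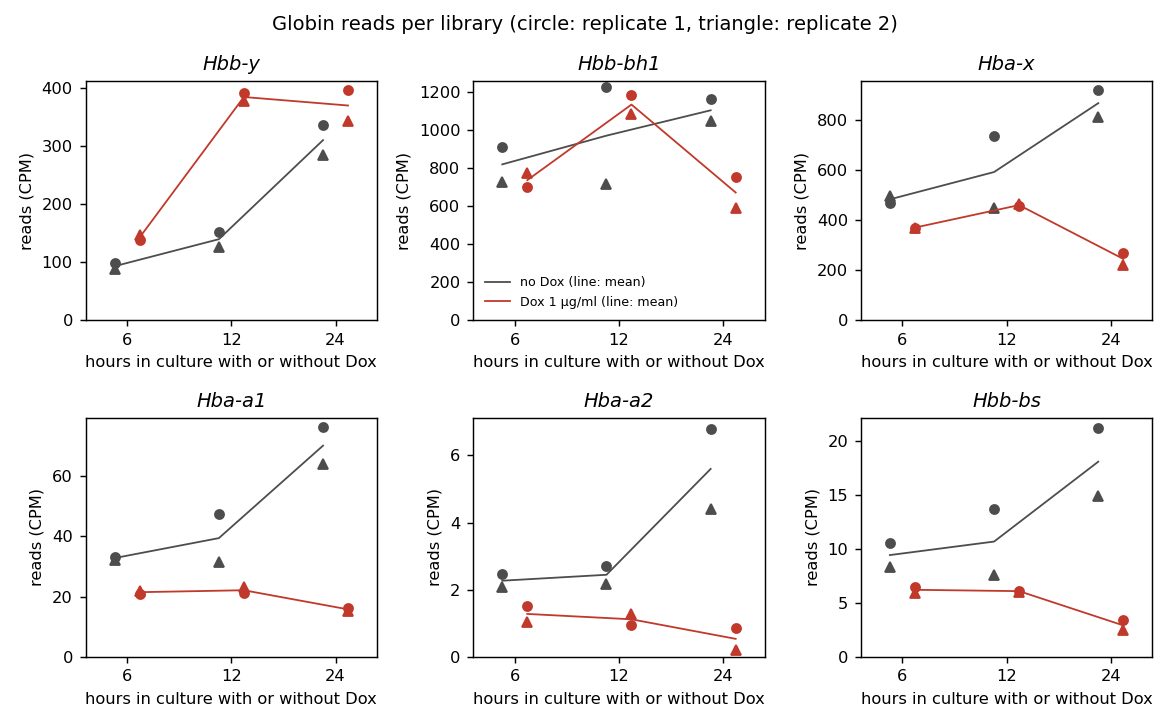
Reads of each globin gene in CPM (y axis, from 0) in every library at 6, 12 and 24 h without Dox (grey) and with 1 µg/ml Dox (red); circles are replicate 1, triangles replicate 2 and lines join group means of 2 libraries. Hbb-y is higher with Dox at each hour, Hba-a1, Hba-a2 and Hbb-bs are lower with Dox at each hour, and Hbb-bh1 overlaps at 6 and 12 h.

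Levels between genes were compared as RPKM, which is per length. Hbb-bh1 was the most abundant of the 6 in every library, at 868 to 1852 RPKM. Hba-x followed at 213 to 902 and Hbb-y at 122 to 546 RPKM. The adult genes were far lower, with Hba-a1 at 17.0 to 86.5, Hbb-bs at 2.57 to 22.6 and Hba-a2 at 0.293 to 9.36 RPKM. Over all libraries neighbours in this order overlapped in range, except Hbb-y and Hba-a1. Within libraries the order of Hba-x and Hbb-y turned: Hba-x was higher in all untreated libraries and in those with Dox at 6 h, and Hbb-y was higher in the 4 libraries with Dox at 12 and 24 h.

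Hbb-y, the embryonic β-type globin called εy, was the gene that rose with Dox. At 6 h, untreated cells had 97.9 and 87.6 CPM in replicates 1 and 2, and cells with Dox had 138 and 147. At 12 h the values were 152 and 126 without Dox and 390 and 378 with it. At 24 h they were 335 and 284 without Dox and 396 and 343 with it. The libraries with Dox lay above the untreated ones at each hour, by a wide margin at 12 h and a narrow one at 24 h. The log2 fold change was 0.61 ± 0.08 at 6 h (adjusted p = 2.1e-05), 1.47 ± 0.08 at 12 h (adjusted p = 3.6e-14), a 2.78-fold difference, and 0.26 ± 0.08 at 24 h (adjusted p = 0.0189). The effect was larger at 12 h than at 6 h by 0.86 ± 0.11 on the log2 scale (adjusted p = 7.59e-05) and smaller at 24 h than at 12 h (-1.21 ± 0.11, adjusted p = 7.3e-08). The first of these differences was not called in the 3 limma-trend fits (0.87 in each, adjusted p = 0.194, 0.171 and 0.396), and the second not in the one with no filter (-1.23, adjusted p = 0.114). The rise at 24 h rested on single libraries: it was 0.16 without replicate 1 with Dox (adjusted p = 0.286) and 0.15 without untreated replicate 2 (adjusted p = 0.399), in a range of 0.000135 to 0.4 over its 17 alternatives.

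Hbb-bh1, the other embryonic β-type globin (βh1), gave no call at 6 and 12 h and fell at 24 h. Its values at 6 h were 913 and 725 CPM without Dox and 701 and 771 with it. At 12 h they were 1225 and 715 without Dox and 1181 and 1086 with it. At 24 h untreated cells had 1160 and 1046 CPM and cells with Dox 755 and 587. The groups overlapped at 6 and 12 h, where both libraries with Dox lay between the untreated ones at 12 h, and were apart at 24 h. The log2 fold change was -0.16 ± 0.13 at 6 h (adjusted p = 0.783), 0.23 ± 0.13 at 12 h (adjusted p = 0.346) and -0.71 ± 0.13 at 24 h (adjusted p = 0.000278), a 1.64-fold lower level. The 24 h effect minus that at 12 h was -0.94 ± 0.19 (adjusted p = 0.00541), a call that was lost without untreated 24 h replicate 1 (-0.86, adjusted p = 0.0693, in a range of 2.43e-40 to 0.497 over 20 alternatives), and the value was -0.60 without untreated 12 h replicate 2. The 12 h value was set by which untreated library was used: 0.67 without replicate 1 (adjusted p = 2.29e-05) and -0.11 without replicate 2 (adjusted p = 0.663), in a range of 2.29e-05 to 0.755. At 6 h the value was 0.014 without untreated replicate 1. The 24 h call was not reached in DESeq2 (adjusted p = 0.0807).

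Hba-x, the embryonic α-type globin ζ, gave no call at 6 and 12 h and was 3.53-fold lower with Dox at 24 h. It had 469 and 496 CPM without Dox and 370 and 370 with it at 6 h. At 12 h it had 735 and 449 without Dox and 457 and 463 with it. At 24 h the values were 921 and 814 without Dox and 269 and 221 with it. The groups were apart at 6 h and at 24 h and overlapped at 12 h, where untreated replicate 2 lay below both libraries with Dox. The log2 fold changes of -0.38 ± 0.11 at 6 h (adjusted p = 0.104) and -0.36 ± 0.11 at 12 h (adjusted p = 0.0542) missed the threshold, and the gene fell at 24 h (-1.82 ± 0.12, adjusted p = 1.43e-12). Without untreated replicate 1 the 12 h value was 0.041 (adjusted p = 0.864), and without replicate 2 it was -0.68 (adjusted p = 6.25e-07), in a range of 2.73e-10 to 0.864 over 17 alternatives. Minus the effect at 12 h, that at 24 h was -1.46 ± 0.16 (adjusted p = 2.69e-06).

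Hba-a1, an adult α-globin also made by primitive red cells, fell at all 3 hours. It had 33.3 and 32.3 CPM without Dox and 21 and 21.9 with it at 6 h. At 12 h the values were 47.3 and 31.6 without Dox and 21.2 and 23.0 with it. At 24 h they were 76.4 and 63.9 without Dox and 16.3 and 15.2 with it. The groups did not overlap at any hour, and the gap was widest at 24 h. The effect at 12 h was not called as different from that at 6 h (-0.20 ± 0.17, adjusted p = 0.771). The log2 fold changes were -0.61 ± 0.13 (adjusted p = 0.00548), -0.81 ± 0.12 (adjusted p = 4.32e-05) and -2.13 ± 0.12 (adjusted p = 1.39e-13), the last a 4.39-fold lower level. The first call depended on single libraries: it did not hold once untreated replicate 1 (-0.59, adjusted p = 0.117) or Dox replicate 2 (-0.65, adjusted p = 0.0851) was left out, in a range of 1.31e-07 to 0.304. The 12 h value was -0.52 without untreated replicate 1 and stayed called. The 24 h effect minus the 12 h effect was -1.33 ± 0.17 (adjusted p = 3.16e-05).

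Hba-a2, the near-identical adult α-globin, was counted at 3 to 145 reads per library. It had 2.46 and 2.08 CPM without Dox and 1.52 and 1.03 with it at 6 h. At 12 h the values were 2.71 and 2.18 without Dox and 0.950 and 1.28 with it. At 24 h they were 6.79 and 4.40 without Dox and 0.854 and 0.215 with it, the last from 3 reads. The groups were apart at each hour, and the libraries with Dox at 24 h differed from each other by 3.96-fold. The 6 h difference was not called (-0.92 ± 0.35, adjusted p = 0.28), and the gene fell at 12 h (-1.15 ± 0.34, adjusted p = 0.0386) and at 24 h (-3.08 ± 0.35, adjusted p = 1.23e-07). The 12 h call did not hold when untreated replicate 1 (-1.02, adjusted p = 0.159), untreated replicate 2 (-1.34, adjusted p = 0.0942) or Dox replicate 1 (-0.88, adjusted p = 0.41) was left out, in a range of 0.00282 to 0.41. Over single libraries left out, the 24 h value ran from -4.60 to -2.64 and was called each time. The 24 h effect did not pass as different from that at 12 h (-1.93 ± 0.52, adjusted p = 0.0609), and it passed without Dox 24 h replicate 1 (-3.46, adjusted p = 0.0148) or untreated 12 h replicate 1 (-2.05, adjusted p = 0.0432).

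Hbb-bs, the adult β-globin, had 34 to 493 reads per library. It had 10.6 and 8.30 CPM without Dox and 6.51 and 5.91 with it at 6 h. At 12 h the values were 13.7 and 7.63 without Dox and 6.15 and 6.03 with it. At 24 h they were 21.2 and 15.0 without Dox and 3.38 and 2.44 with it. Cells with Dox were lower at each hour with no overlap. The log2 fold change was -0.65 ± 0.21 at 6 h (adjusted p = 0.166), -0.73 ± 0.21 at 12 h (adjusted p = 0.029) and -2.53 ± 0.22 at 24 h (adjusted p = 6.82e-10), the last a 5.79-fold lower level. At 12 h the call did not hold when untreated replicate 1 (-0.32, adjusted p = 0.483), Dox replicate 1 (-0.73, adjusted p = 0.193) or Dox replicate 2 (-0.71, adjusted p = 0.0749) was left out, in a range of 0.000119 to 0.483, and the value was -1.17 without untreated replicate 2. The difference between the effects at 24 and 12 h was -1.81 ± 0.31 (adjusted p = 0.00107).

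**Figure D2:**
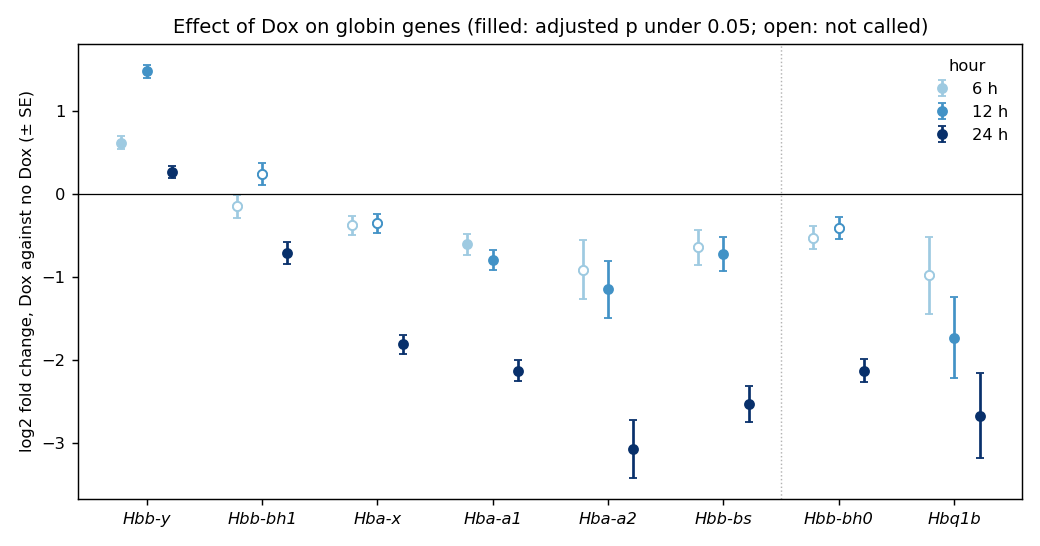
Log2 fold change of Dox against no Dox (y axis, ± SE) for the 6 globin genes and, right of the dotted line, Hbb-bh0 and Hbq1b, at 6 h (pale), 12 h (mid blue) and 24 h (dark); filled points were called at an adjusted p under 0.05. Hbb-y lies above 0 at each hour with its largest value, 1.47, at 12 h, and the other 7 genes have their lowest value at 24 h.

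The differences between hours were themselves tested for all genes. Between 6 and 12 h the Dox effect changed for 1 of the 6 globins (Hbb-y, upward), where it changed for 0.417% of all tested genes. Between 12 and 24 h it moved downward for 5 of 6, all but Hba-a2, where 1.02% of all genes moved downward. All 4 libraries of 12 h enter both differences. Without untreated 12 h replicate 1, the difference between 6 and 12 h was 0.84 for Hbb-bh1 and 0.43 for Hba-x. With all libraries these values were 0.39 and 0.03. In edgeR with no filter that of Hbb-bh1 was called (0.38, adjusted p = 1.28e-05). In the limma-trend fit to log2(RPKM + 0.1) the differences of Hbb-bh1, Hba-x, Hba-a1 and Hbb-bs between 12 and 24 h were not called (adjusted p = 0.316, 0.0855, 0.0678 and 0.126).

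Without Dox, most globins rose late in the culture. From 6 to 12 h only Hbb-y rose in untreated cells (0.57 ± 0.08, adjusted p = 2.72e-05), 1 of 6 genes where 4.39% of all tested genes rose. From 12 to 24 h, 5 of 6 rose, where 12.2% of all genes did: Hbb-y by 1.16 ± 0.08 on the log2 scale, Hba-a2 by 1.18 ± 0.28, Hba-a1 by 0.86 ± 0.11, Hbb-bs by 0.81 ± 0.19 and Hba-x by 0.56 ± 0.11. Hbb-bh1 was not called in either step (0.24 and 0.19). The late rises of Hba-a2 and Hbb-bs were lost without untreated 24 h replicate 1 (0.87 with adjusted p = 0.0725 and 0.55 with adjusted p = 0.0819) or 12 h replicate 2 (1.0 with adjusted p = 0.0824 and 0.36 with adjusted p = 0.241); adjusted p ran from 2.43e-05 to 0.209 for Hba-a2 and from 3.46e-07 to 0.241 for Hbb-bs. Untreated 12 h replicate 1 also decided the early step: without it Hbb-bh1, Hba-x and Hba-a1 were at -0.20, -0.11 and -0.061, and without 12 h replicate 2 they rose by 0.58, 0.61 and 0.52. The late step of Hbb-bh1 was 0.61 without 12 h replicate 1 (adjusted p = 2.47e-05) and -0.15 without 12 h replicate 2, and that of Hba-x was 0.94 without 12 h replicate 1 and 0.24 without 12 h replicate 2, called both times. The late rise of Hba-x was not called in DESeq2 (0.55, adjusted p = 0.0658) or in the 3 limma-trend fits (adjusted p = 0.0531, 0.052 and 0.125), and that of Hbb-bs was not either (adjusted p = 0.0853 in DESeq2). The late step of Hba-a1 was 0.56 without 12 h replicate 2 and was called.

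With Dox, Hbb-y and Hbb-bh1 were higher at 12 h than at 6 h, and most globins fell after 12 h. From 6 to 12 h Hbb-y rose by 1.43 ± 0.08 on the log2 scale (adjusted p = 3.2e-13) and Hbb-bh1 by 0.62 ± 0.13 (adjusted p = 0.00126), 2 of 6 genes where 8.84% of all tested genes rose. The step of Hbb-bh1 was not called in DESeq2 (0.63, adjusted p = 0.0883) or in the 3 limma-trend fits (0.65 in each, adjusted p = 0.0766, 0.0773 and 0.188). Hba-x missed the threshold (0.31 ± 0.11, adjusted p = 0.0531), and the adult genes were at 0.03 (Hba-a1), -0.19 (Hba-a2) and -0.01 (Hbb-bs). From 12 to 24 h, 4 of 6 fell, where 5.98% of all genes fell: Hbb-bh1 (-0.75 ± 0.13), Hba-x (-0.90 ± 0.12), Hba-a1 (-0.47 ± 0.13) and Hbb-bs (-1.0 ± 0.24). Hbb-y was at -0.05 ± 0.07 (adjusted p = 0.704). The fall of Hba-a1 was lost without Dox 12 h replicate 2 (-0.42, adjusted p = 0.0667) or Dox 24 h replicate 2 (-0.44, adjusted p = 0.0751), in a range of 0.000136 to 0.136 that takes in DESeq2 (adjusted p = 0.1), and that of Hbb-bs without Dox 12 h replicate 1 (-0.99, adjusted p = 0.0524), in a range of 1.62e-06 to 0.0743. Hba-a2 was not called (-0.74 ± 0.43) and was called only without Dox 24 h replicate 1 (-2.29, adjusted p = 0.0454) among its alternatives. So Hbb-y with Dox at 12 h, at 390 and 378 CPM, was above the 335 and 284 of untreated cells at 24 h, while Hba-x with Dox at 24 h was below its level in every other group.

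These opposite moves altered the make-up of globin RNA, given per library with no test. Hbb-y was 9.0 and 10.0% of β-type RPKM (Hbb-y, Hbb-bh1 and Hbb-bs together) in untreated cells at 6 h and 15.3 and 15.0% with Dox. The shares were 10.3 and 14.0% against 23.4 and 24.3% at 12 h, and 21 and 20.0% against 32.7 and 35.1% at 24 h. The share was higher with Dox at each hour with no overlap, and Hbb-bs was at most 1.02% in all libraries. Adult α-globins were 8.20 and 7.50% of α-type RPKM in untreated cells at 6 h, 7.36 and 8.09% at 12 h and 9.60 and 8.96% at 24 h. With Dox they were 6.67 and 6.75, 5.35 and 5.79, and 6.93 and 7.50% at these hours, lower without overlap at each hour. Hba-x thus made up most α-type RPKM in every library. How reads matching both Hba-a1 and Hba-a2 were counted is not given. The level of the adult shares, and of the ratio of α-type to β-type RPKM below, is therefore uncertain. The pseudogene row Hbb-bh0 was left out of the β-type sum, although it had 143 to 782 RPKM. With it in the sum, the share of Hbb-y and the ratio of α-type to β-type RPKM would be lower in every library.

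The balance between the chain types differed as well. The ratio of α-type to β-type RPKM was 0.331 and 0.432 in untreated cells at 6 h, 0.377 and 0.382 at 12 h and 0.448 and 0.443 at 24 h. With Dox it was 0.311 and 0.285, then 0.204 and 0.223, then 0.168 and 0.172. The groups did not overlap at any hour, and β-type RNA exceeded α-type RNA in all 12 libraries. Hbb-y over Hba-x, a ratio of RPKM, was 0.517 and 0.495 in untreated cells at 24 h and 2.09 and 2.20 with Dox. Hbb-bh1 exceeded Hbb-y by 8.91- to 10.0-fold in untreated cells at 6 h, by 3.72- and 3.97-fold at 24 h, and by 2.05- and 1.85-fold with Dox at 24 h. All 6 genes together took between 0.115% and 0.251% of the counts of a library.

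**Figure D3:**
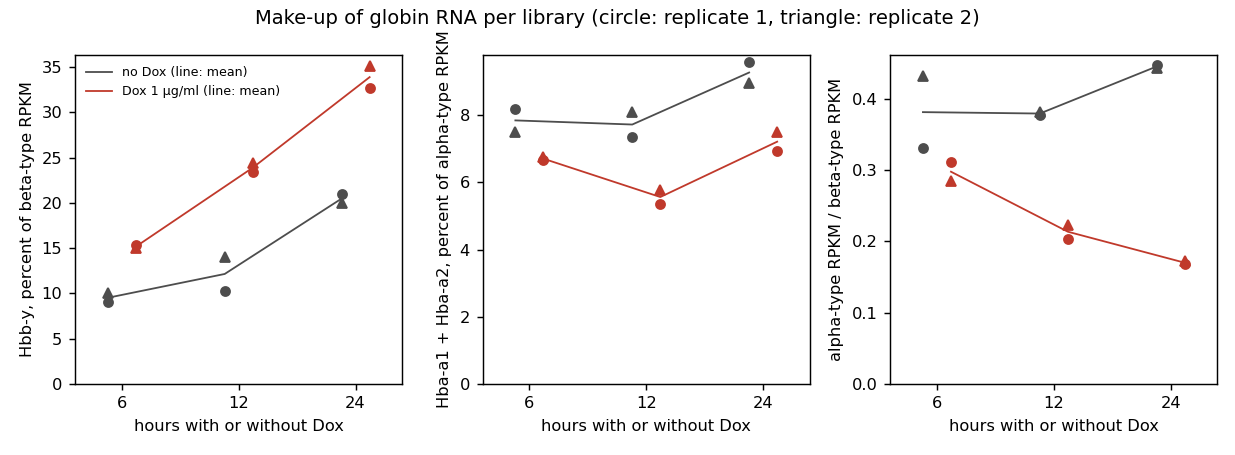
Make-up of globin RNA per library at 6, 12 and 24 h without Dox (grey) and with Dox (red), from RPKM; circles are replicate 1, triangles replicate 2, lines group means of 2 libraries, and each y axis starts at 0. Left, the Hbb-y share of β-type RNA reaches 32.7 and 35.1% with Dox at 24 h; middle, the share of adult genes in α-type RNA is lower with Dox at each hour; right, the ratio of α-type to β-type RNA is 0.168 and 0.172 with Dox at 24 h and 0.448 and 0.443 without.

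Globin rows of opposite direction lay next to each other. The β-type cluster lies on chromosome 7 (GRCm38, minus strand), with Hbb-y at 103851745-103853240, Hbb-bh1 at 103841636-103843164 and Hbb-bs at 103826534-103828096. Between Hbb-y and Hbb-bh1 lies Hbb-bh0, a pseudogene row at 103850020-103850148 whose start is 3.09 kb from that of Hbb-y. Hbb-bh0 had 52.1 and 47.4 CPM without Dox at 6 h, 36.0 and 33.5 with it, and at 24 h 110 and 96.4 without Dox and 25.4 and 20.3 with it. It was lower with Dox at these hours without overlap, and it fell at 24 h (-2.13 ± 0.14, adjusted p = 2.17e-12) while its neighbour Hbb-y rose. At 6 and 12 h it missed the threshold (-0.53, adjusted p = 0.0501, and -0.42, adjusted p = 0.0556). Its 75-base stretches are in no other globin row.

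The α-type cluster lies on chromosome 11 (GRCm38, plus strand), with Hba-x at 32276400-32278116, Hba-a1 at 32283511-32284465 and Hba-a2 at 32296489-32297298. Hbq1b, a θ-type globin row between Hba-a1 and Hba-a2 with 2 to 42 reads per library, fell at 12 h (-1.73 ± 0.48, adjusted p = 0.0257) and at 24 h (-2.67 ± 0.51, adjusted p = 0.00039) and was not called at 6 h (-0.98 ± 0.46, adjusted p = 0.456). Hbb-bt had 0 to 7 reads per library and Hbb-bh2 1 to 13, too few to test, and Hbb-bh3, Hbq1a and Hba-ps4 had none. Of 6 other tested genes whose starts lie within 120 kb of that of Hba-x, 2, 4 and 4 rose at 6, 12 and 24 h. None of them was called lower at any of these hours. Of all tested genes, 0.821%, 3.26% and 4.5% rose at these hours, and 0.717%, 3.51% and 6.52% fell. Nprl3, which is not a globin and whose introns hold the main α-globin enhancers, was at -0.01, 0.15 and -0.05, not called. Il9r, the receptor for interleukin 9, rose by 0.98 ± 0.26, 1.66 ± 0.24 and 1.94 ± 0.24 on the log2 scale, and Sh3pxd2b, an adaptor of podosomes, by 0.40 ± 0.06, 0.50 ± 0.06 and 0.49 ± 0.06. Il9r had only 21 to 184 reads per library, and its 6 h call lay close to the threshold (adjusted p = 0.0479). Snrnp25 and Rhbdf1 rose at 12 and 24 h, to 0.65 ± 0.12 and 0.41 ± 0.07 at 24 h.

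**Figure D4:**
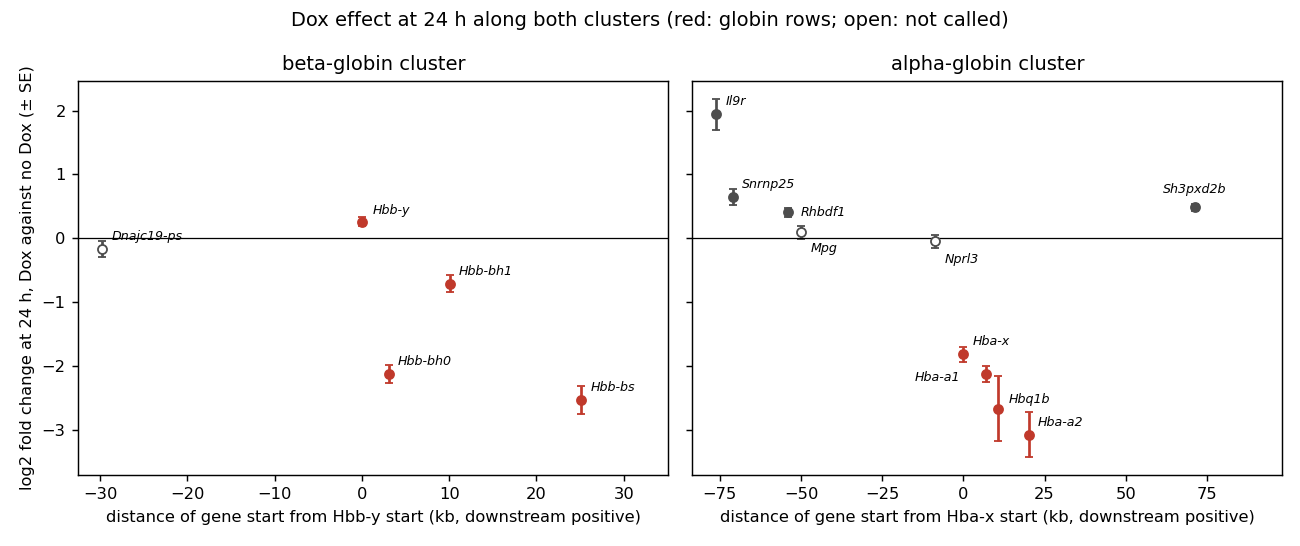
Log2 fold change of Dox against no Dox at 24 h (y axis, ± SE) against the distance of each gene's start from that of Hbb-y (left) or Hba-x (right) in kb, for tested genes within 120 kb; globin rows are red, other genes grey, and open points were not called. Hbb-y, at 0.26, is the only globin row above 0, and Hbb-bh0 next to it is at -2.13; in the α-type cluster all globin rows lie below -1.8 and no flanking gene was called lower.

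Several transcription factors that act on globin genes fell with Dox, among them Nfe2 and Gata1, but most regulators were not called. Of 37 regulators, all tested, 1 rose and 9 fell at 6 h, and 3 rose and 7 fell at 12 h. At 24 h, 3 rose and 11 fell. Of all tested genes, 0.717%, 3.51% and 6.52% fell at 6, 12 and 24 h, and 0.821%, 3.26% and 4.5% rose. Among the regulators, 27, 27 and 23 were not called, and the median log2 fold changes of all 37 were -0.08, -0.02 and -0.02. Nfe2, which binds the globin locus control region, fell by 0.99 ± 0.10, 0.79 ± 0.10 and 1.20 ± 0.10 on the log2 scale at 6, 12 and 24 h. Gata1 fell by 0.95 ± 0.16, 0.52 ± 0.15 and 0.96 ± 0.15. At 12 h Gata1 had 27.3 and 17.3 CPM without Dox and 16.4 and 13.0 with it. Untreated replicate 2 thus lay close to Dox replicate 1. Klf1, needed for adult β-globin, was at -0.50 and -0.40 at 6 and 12 h, not called. It fell by 1.27 ± 0.16 at 24 h (adjusted p = 4.9e-07). Gfi1b, a transcriptional repressor that acts in erythroid and megakaryocyte cells, fell by 1.37 ± 0.16 at 6 h. It was at -0.09 at 12 h and fell by 0.65 ± 0.14 at 24 h. Tal1 and Lyl1 fell at all 3 hours, by 0.28 to 0.50.

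Among the regulators that rose, Lmo2, the bridging protein of the TAL1 complex, rose at 6 and 12 h (0.32 ± 0.07 and 0.27 ± 0.07). Sox6, the known silencer of Hbb-y, had 63.7 and 55.0 CPM without Dox and 81.9 and 72.4 with it at 12 h, and 83.1 and 90.9 without Dox and 122 and 105 with it at 24 h. The libraries with Dox were the higher ones at both hours, and Sox6 rose by 0.40 ± 0.08 (adjusted p = 0.00192) and 0.38 ± 0.08 (adjusted p = 0.000835). Hbb-y was also called higher at 12 and 24 h (1.47 and 0.26). Its 24 h call depended on single libraries and was not reached in DESeq2 or limma-trend. A link between Sox6 and Hbb-y was not tested. Gata2, which GATA1 replaces as red cells mature, rose at 24 h (0.53 ± 0.09), and Klf3, a repressor that binds CACCC elements, rose at 12 and 24 h (0.19 ± 0.06 and 0.27 ± 0.06). Bcl11a, the adult-stage repressor of embryonic β-type globins, was not called at any hour (0.42 ± 0.24, -0.09 ± 0.20 and 0.29 ± 0.20).

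**Figure D5:**
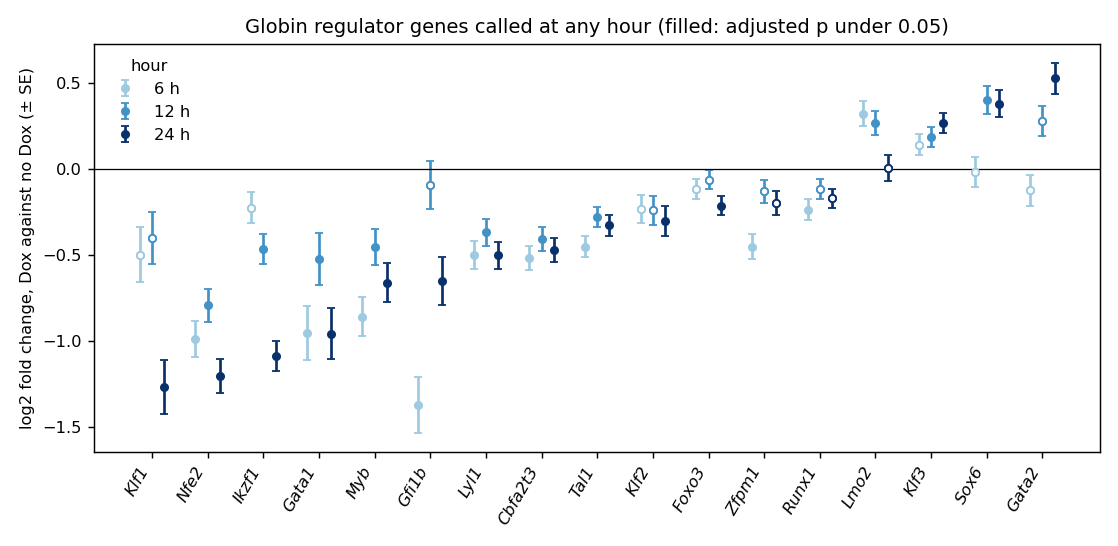
Log2 fold change of Dox against no Dox (y axis, ± SE) at 6, 12 and 24 h for the 17 of 37 globin regulator genes called at any hour, ordered by the 24 h value; filled points were called. Nfe2 and Gata1 lie below -0.5 at each hour, Klf1 is called at 24 h alone, and Lmo2, Klf3, Sox6 and Gata2 have calls above 0.

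Genes of haem synthesis and iron supply, which red cells switch on with globin, moved with the falling globins at 24 h. Of 16, 4 fell at 6 h, 5 fell and 1 rose at 12 h, and 11 fell at 24 h. Of all tested genes, 0.717%, 3.51% and 6.52% fell at these hours, and 0.821%, 3.26% and 4.5% rose. The median log2 fold changes of the 16 were -0.15, -0.18 and -0.46. The 1 that rose at 12 h was Alas2, the erythroid enzyme that begins haem synthesis (0.44 ± 0.11, adjusted p = 0.0115). Alas2 then fell at 24 h (-0.69 ± 0.11, adjusted p = 1.89e-05). Slc25a37, the mitochondrial iron importer, fell at all 3 hours, by 0.52 ± 0.13, 0.55 ± 0.13 and 1.15 ± 0.13.

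Markers of red cells and of other cells moved with these results, and their part in them was not tested. The erythroid list held 18 tested genes, membrane and surface genes together with others such as Cited4. Of these, 4 fell and 1 rose at 6 h, and 6 fell and 2 rose at 12 h. At 24 h, 14 fell and 2 rose (Aqp1, a water channel that endothelium also makes, and Cited4). Of all tested genes, 0.717%, 3.51% and 6.52% fell at 6, 12 and 24 h, and 0.821%, 3.26% and 4.5% rose. The sum of the 9 erythroid markers was 565 to 602 CPM without Dox and 469 to 482 with it at 6 h, 488 to 615 against 429 to 473 at 12 h, and 636 to 653 against 366 to 400 at 24 h. Tfrc, the transferrin receptor, which dividing cells of other types also make, supplied a large part of this sum. Without Tfrc the sum was 199.7 and 199.9 CPM without Dox and 156 and 147 with it at 6 h, 272 and 183 against 192 and 170 at 12 h, where the groups overlapped, and 354 and 352 against 178 and 163 at 24 h. The 8 megakaryocyte markers summed to 559 to 566 CPM without Dox and 330 to 341 with it at 24 h, and the 10 macrophage and myeloid markers to 153 to 160 and 54.8 to 61.3. The sum of the 10 endothelial markers went the other way at 24 h, at 2058 to 2088 CPM without Dox and 2421 to 2530 with it. Of these 10, 6 were called higher and 4 were not called, with log2 fold changes of -0.24 to 0.50. No defining marker of these lists was at 0 in all libraries.

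Across the 12 libraries the 6 genes fell into different patterns, described by Pearson's r of log2 CPM. Libraries share hour and Dox, so these r values carry no test. Hba-x, Hba-a1, Hba-a2 and Hbb-bs followed each other at 0.92 to 0.97, Hbb-bh1 followed them at 0.58 to 0.77, and Hbb-y gave -0.26 to 0.30 with the other 5. Of 12445 genes compared, the most like Hba-x were the erythroid ankyrin gene Ank1 (0.97) and Klf1 (0.96), and the most like Hbb-bs were Trim10 (0.97) and Slc38a5 (0.96). F13a1 (0.97) and Slc38a5 (0.96) were nearest to Hba-a1, and Slc38a5 (0.95) to Hba-a2. Slc30a10, a manganese exporter, was nearest to Hbb-bh1 (0.94), followed by Ppox, an enzyme of haem synthesis (0.89). The genes nearest to Hbb-y were Igsf3 (0.97), Foxk1 (0.96) and Igf2bp2 (0.96), whose Dox effects at 12 h were 0.43, 0.14 and 0.20 on the log2 scale against 1.47 for Hbb-y.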

How the data were processed

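Total RNA was sequenced as single reads of 75 bases from strand-specific libraries, per the labels' protocols. The submitters' processing notes name GRCm38, Bowtie2 2.21 and edgeR 3.8.5, and name no counter, strand setting or annotation release (not given in the sources used here). Raw counts, whole numbers for 41128 gene rows, were deposited by the authors together with RPKM of the same rows. No value column was left out. The fit to the counts used edgeR 4.0.16 (R 4.3.3): filterByExpr, TMM scaling and a quasi-likelihood fit of 6 group means to all 12 libraries (6 residual degrees of freedom), with Benjamini-Hochberg adjustment over 15347 genes. CPM values use TMM-scaled library sizes. Each SE was derived from the fitted log2 fold change and its F statistic. The script was tested on simulated data. Replicate libraries were further apart than counting error allows (chi-square per degree of freedom 2.63 to 4.61).

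Groups came from the sample titles. The globins are always named; regulators and haem genes were named where called, by smallest adjusted p or where they moved against the rest, and the 5 genes most like each globin were taken among genes of mean log2 CPM of at least 1. A few further names (Il9r, Sh3pxd2b, Snrnp25, Rhbdf1, Nprl3, Bcl11a, Aqp1, Cited4) were chosen after their values were seen. Members and lists were chosen with earlier results of these data known. Promoter windows are RefSeq's, and the 75-base stretches and coding bases come from GENCODE transcripts of GRCm38. Alternatives were RLE and upper-quartile scaling, other filters, DESeq2 1.42.0, limma-trend (limma 3.58.1) on log2(RPKM + 0.1 or 1), a replicate block, the 4 libraries of an hour alone, summed near-identical copies and single libraries left out.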

Additional observations from a re-analysis of the deposited data

Results flagged for a closer look

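These 6 results stood out because the Dox effect itself differed between hours in a test of that difference over all genes (edgeR's quasi-likelihood test, Benjamini-Hochberg adjustment). The Hbb-y effect was larger at 12 h than at 6 h by 0.86 on the log2 scale (adjusted p = 7.59e-05), with effects of 0.61 at 6 h and 1.47 at 12 h. Between 12 and 24 h the difference was -1.21 for Hbb-y (adjusted p = 7.3e-08), which stayed above 0 at both hours, and -0.94 for Hbb-bh1 (adjusted p = 0.00541), whose value was 0.23 at 12 h and -0.71 at 24 h. It was -1.46 for Hba-x (adjusted p = 2.69e-06), -1.33 for Hba-a1 (adjusted p = 3.16e-05) and -1.81 for Hbb-bs (adjusted p = 0.00107). Hba-a1 and Hbb-bs were called lower with Dox at both hours by edgeR. Hba-x was called lower at 24 h alone. At 12 h it was not called (-0.36, adjusted p = 0.0542), and its libraries with and without Dox overlapped. Each difference rests on 2 libraries a group. In limma-trend on log2(RPKM + 0.1), log2(RPKM + 1) and log2(RPKM + 0.1) with no filter, the first difference of Hbb-y (adjusted p = 0.194, 0.171 and 0.396) and those of Hbb-bh1 (0.316, 0.276 and 0.497) and Hbb-bs (0.126, 0.0896 and 0.236) were not called. Those of Hba-x (0.0855 and 0.171) and Hba-a1 (0.0678 and 0.155) were not called in the first and the last of these fits, nor was the second difference of Hbb-y in the last (0.114). DESeq2 did not call that of Hbb-bh1 (adjusted p = 0.368).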

How the results depend on the processing

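Of 303 recomputed Dox effects of the 6 globins over 18 results, 256 kept direction and side of the threshold, 34 lost the call, 10 gained it and 3 turned direction. The effects of Hbb-y at 12 h and of Hba-x, Hba-a1, Hba-a2 and Hbb-bs at 24 h were called under each alternative run. The cause of the changes below was not tested.

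The number of genes called at 6, 12 and 24 h (236, 1038 and 1690) was 71, 351 and 1060 with limma-trend on log2(RPKM + 0.1), 69, 360 and 1108 with log2(RPKM + 1), and 40, 253 and 959 with log2(RPKM + 0.1) and no filter. For the untreated steps (1145 and 3440) limma-trend gave 555, 559 and 332 at 12 h against 6 h in that order, and 2002 at 24 h against 12 h with no filter. For the Dox steps (2906 and 2121) it gave 1841, 1826 and 1245, and 959 with no filter. For the differences of effects (64 and 185) it gave 3, 4 and 1, and 6, 56 and 2; edgeR with no filter gave 255 and 356. With single libraries left out the counts ran from 86 to 180, 423 to 754 and 1084 to 1497 for Dox at 6, 12 and 24 h, 401 to 698 and 2103 to 2604 for the untreated steps, 1023 to 2460 and 1052 to 1985 for the Dox steps, and 13 to 174 and 65 to 274 for the differences.

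In limma-trend on log2(RPKM + 0.1), log2(RPKM + 1) and log2(RPKM + 0.1) with no filter, calls were lost for Hbb-y at 6 h (0.60, 0.60 and 0.60) and 24 h (0.24, 0.24 and 0.24), Hba-a1 at 6 h (-0.63, -0.61 and -0.63), Hbb-bh1 at 24 h (-0.74, -0.74 and -0.74), and Hba-a2 (-1.08, -0.78 and -1.08) and Hbb-bs (-0.74, -0.67 and -0.74) at 12 h, and with no filter for Hba-a1 at 12 h (-0.80). DESeq2 lost Hba-a1 at 6 h (-0.62), Hba-a2 (-1.14) and Hbb-bs (-0.79) at 12 h, and Hbb-y (0.26) and Hbb-bh1 (-0.71) at 24 h. Calls were gained with no filter for Hba-x at 6 h (-0.39) and 12 h (-0.37), Hbb-bs at 6 h (-0.65) and Hbb-bh1 at 12 h (0.22), and with the 4 libraries of the hour alone for Hba-x (-0.38) and Hbb-bs (-0.65) at 6 h. Between hours, limma-trend with no filter also lost the untreated rise of Hbb-y by 12 h (adjusted p = 0.0628), that of Hba-a2 by 24 h (adjusted p = 0.209) and the falls with Dox after 12 h of Hbb-bh1 (adjusted p = 0.129), Hba-a1 (adjusted p = 0.136) and Hbb-bs (adjusted p = 0.0743). The step of Hbb-bs from 12 h against 6 h with Dox, near 0, turned sign with upper-quartile scaling (0.00029) and in the 3 limma-trend fits (0.0018, 0.0014 and 0.0018).

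With single libraries left out, Dox effects ran as follows. At 6 h the range was 0.53 to 0.70 for Hbb-y, -0.32 to 0.014 for Hbb-bh1, -0.43 to -0.35 for Hba-x, -0.65 to -0.59 for Hba-a1, -1.18 to -0.60 for Hba-a2 and -0.79 to -0.44 for Hbb-bs. At 12 h it was 1.34 to 1.61, -0.11 to 0.67, -0.68 to 0.041, -1.11 to -0.52, -1.34 to -0.88 and -1.17 to -0.32 in that order, and at 24 h 0.15 to 0.38, -0.90 to -0.54, -1.96 to -1.68, -2.26 to -2.01, -4.60 to -2.64 and -2.84 to -2.30. The untreated step to 12 h ran from -0.20 to 0.58 (Hbb-bh1), -0.11 to 0.61 (Hba-x), -0.061 to 0.52 (Hba-a1), -0.084 to 0.23 (Hba-a2) and -0.34 to 0.51 (Hbb-bs), and the step to 24 h from -0.15 to 0.61 (Hbb-bh1). With Dox the step to 12 h ran from -0.012 to 0.12 (Hba-a1), -0.50 to 0.091 (Hba-a2) and -0.083 to 0.064 (Hbb-bs), and that to 24 h from -0.17 to 0.036 (Hbb-y). The difference of effects between 6 and 12 h ran from -0.29 to 0.43 (Hba-x), -0.50 to 0.10 (Hba-a1), -0.54 to 0.0496 (Hba-a2) and -0.52 to 0.34 (Hbb-bs).

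The deviations of same-numbered libraries correlated at -0.268 to 0.208 over 15 pairs of groups, 3 of them over 0.1. Such values cannot show whether same-numbered libraries were handled together, so they do not decide whether replicate numbers pair the samples. With the replicate number as a block, Hba-x was called at 6 h (-0.38, adjusted p = 0.0346) and 12 h (-0.34, adjusted p = 0.0281), as were the difference between 12 and 24 h for Hba-a2 (-1.93, adjusted p = 0.0367) and the step of Hba-x from 6 to 12 h with Dox (0.31, adjusted p = 0.0246); it changed no other call of the 6 genes. Depth class as a covariate, chosen after seeing the data, changed no call of a Dox effect of the 6 genes and called the step of Hba-x from 6 to 12 h with Dox (adjusted p = 0.0476). Summing near-identical copies left Hba-a2 without a row of its own. With 3 to 145 reads per library, depth limits Hba-a2 most.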
